A study of Mus musculus with 2 samples.

Results

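Ionocyte-like duct nuclei of the mouse salivary gland were examined in single-nucleus 3' RNA libraries made with the 10x Chromium Single Cell 3' v2 kit. The members were chosen by a rule on measured UMIs (unique molecular identifiers, each standing for 1 captured RNA molecule). A barcode had to hold at least 1000 UMIs, with under 27% of them from 8 secretory genes (Mucl2, Scgb1b27, Scgb2b27, Prol1, Smgc, Scgb2b26, Pip and Car6). It then had to show at least 1 UMI in at least 3 of 8 genes: Foxi1, Foxi2, Ascl3, Cftr, Stap1, Atp6v1c2, Shisa9 and Pde7b. Of 142799 barcodes in both libraries, 21480 passed the first step and are called nuclei here, and 394 passed the second and are called members.

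The study compared glands with and without a working Csf2 gene, which encodes the cytokine GM-CSF, on a background spelled C56BL/6 in the labels. The control library came from Csf2+/- mice, which carry 1 disrupted allele, and the null library from Csf2-/- mice. Both were made from nuclei of unselected cells of the total gland at 20 days of age, after digestion of the gland. There was 1 library per genotype, so a difference between libraries and a difference between genotypes cannot be told apart, and no test between them was made. Whether several animals were pooled, and their sex, are not given in the sources used here. The label names the tissue only as salivary gland, without saying which of the major glands.

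Ionocytes are rare epithelial cells that are rich in ion transporters and are found in airways, kidney, inner ear and gland ducts. Forkhead factors of the Foxi family direct their formation, together with Ascl3 in salivary ducts, and many ionocytes carry a vacuolar proton pump and the chloride channel CFTR. Salivary ducts modify the fluid that acinar cells secrete, taking up sodium and chloride and adding potassium and bicarbonate.

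The control library held 68460 barcodes with 76002888 UMIs and the null library 74339 barcodes with 75630815 UMIs. Median depth was 3282 UMIs in the 234 control members and 2510.5 UMIs in the 160 null members, against 2818 and 2005 UMIs in the nuclei that were not members. Csf2 itself had 5 UMIs in the whole control library and 0 in the null library, where a count of 0 allows up to 3, so the gene gives little check of the labels. Scrublet marked 267 of 8384 control nuclei (3.18%) as doublets but only 9 of 13096 null nuclei (0.0687%), so doublets were not usefully called in the null library and none were removed. Among members it marked 22 of 234 control nuclei, a larger share than of all control nuclei, and 0 of 160 null nuclei. Cell barcodes that occur as nuclei in both libraries numbered 138 (control) and 249 (null), of which 6 and 2 were members. A further 3 clusters, of other nuclei, came almost wholly from 1 library, with 3417 and 98, 241 and 3261, and 66 and 2986 control and null nuclei.

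To check the label, all nuclei were clustered without the 8 rule genes and the 8 secretory genes. Of the 18 clusters, 1 held 256 of the 394 members (65.0%) and showed all 6 ionocyte markers at 2-fold or more over the other nuclei, with 3 of them (Foxi1, Foxi2 and Stap1) among its 10 highest genes by fold, and it is called the ionocyte-like cluster here. It also showed 7 of 15 luminal duct markers at that level. All 6 ionocyte markers are rule genes and this cluster was the one with most members, so their high level there is built in and gives the name no further support. It held 146 control and 110 null members. Another 83 members (21.1%) lay in the luminal duct-like cluster, 57 from the control and 26 from the null library, and 55 were scattered over other clusters. The cluster also held 132 nuclei that the rule missed, 42 control and 90 null, whose median depths were 2323.5 and 1882.5 UMIs. The data therefore go against the label for part of the members, and the 256 inside the cluster, a division made after seeing the data, are described separately as cluster members.

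The 83 members in the luminal duct-like cluster were picked by genes that luminal duct nuclei also carry. In 69 of them (83.1%) the 3 genes were exactly Cftr, Atp6v1c2 and Pde7b, and only 4 had a UMI of Foxi1, Foxi2 or Ascl3. Among cluster members 179 of 256 (69.9%) had a UMI of 1 of those 3 regulators and 254 (99.2%) had one of them or Stap1. Their most frequent combination was Cftr, Stap1 and Pde7b alone, in 40 nuclei (15.6%).

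The threshold of 3 genes fell where the nuclei were mixed. Nuclei with 2 rule genes, just outside it, numbered 666 (control) and 498 (null), and 4.5% and 11.4% of them lay in the ionocyte-like cluster. Nuclei with 3 genes, just inside, numbered 138 and 106, with 42.0% and 54.7% in the cluster. With 4 genes there were 53 and 41 nuclei and 90.6% and 97.6% in the cluster. Pde1c, which the rule did not use, had 396 and 646 CPM at 2 genes, 2047 and 2897 CPM at 3 genes and 6631 and 7595 CPM at 4 genes. CPM here is UMIs of the gene per 1e+06 UMIs, both summed over the nuclei of a class.

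**Figure D1:**
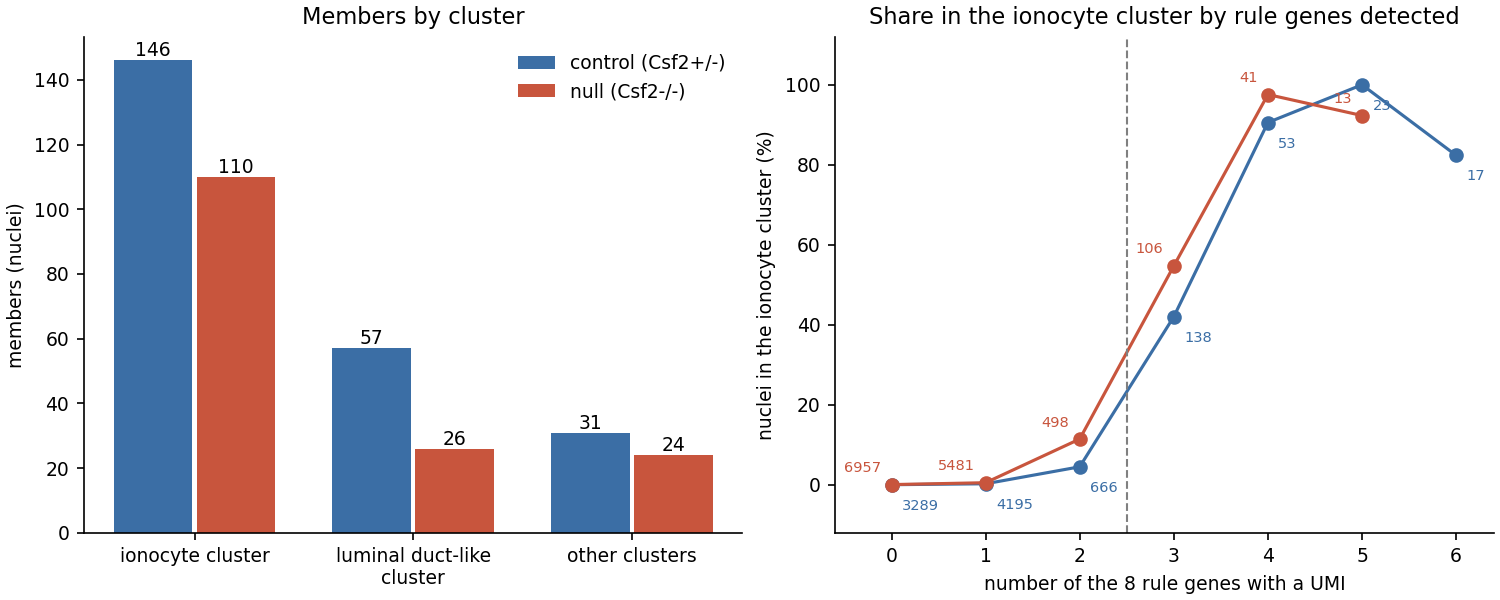
Left, members (nuclei, y axis) in the ionocyte-like, luminal duct-like and other clusters, control in blue and null in red. Right, the share of nuclei in the ionocyte-like cluster (%, y axis) against the number of the 8 rule genes with a UMI, with the number of nuclei beside each point and a dashed line at the rule's threshold; the share is 4.5% and 11.4% at 2 genes and 90.6% and 97.6% at 4 genes, and the 3 control nuclei with 7 or 8 genes are not drawn.

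The genes that selected the members are given as a description only, with exact 95% intervals that cover counting error and nothing else. Foxi1 (ENSMUSG00000047861), the forkhead regulator of ionocytes, stood at 181 CPM (146 to 223) and 173 CPM (128 to 228) in control and null cluster members, with 43.2% and 37.3% of nuclei showing a UMI. Luminal duct-like nuclei that were not members had 4 and 1 Foxi1 UMIs in 741 and 956 nuclei. Fibroblast-like nuclei, which should lack it, showed Foxi1 in 0.4% and 0.1% of nuclei at median depths of 3064 and 2164.5 UMIs. Free RNA gave 4.40 and 2.82 CPM in barcodes under 1000 UMIs. Foxi1 helped to select the members, so its higher level in cluster members is partly built in.

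Foxi2, a related forkhead gene, reached 83.5 and 109 CPM in cluster members, and Ascl3, a basic helix-loop-helix factor of duct progenitors and ionocytes, 153 and 137 CPM. Both had between 0 and 2 UMIs in the luminal duct-like nuclei of each library. Foxi1 and Foxi2 were seen together in 25 of 256 cluster members (9.77%, exact binomial interval 6.42 to 14.1) and in 26 of all 394 members (6.60%). Foxi1 and Ascl3 were seen together in 28 cluster members (10.9%) and Foxi2 and Ascl3 in 13 (5.08%). Thinned to 1000 UMIs per nucleus, Foxi1 was detected in 17.8% and 19.1% and Ascl3 in 18.5% and 13.6% of control and null cluster members. At that depth a nucleus without a UMI of a regulator cannot be told apart from one that lacks it.

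Cftr, the cyclic-AMP-gated chloride channel, stood at 1209.98 and 1557 CPM in cluster members and had a UMI in 90.4% and 92.7% of them. It was also present in luminal duct-like nuclei, at 235 and 153 CPM and in 38.2% and 23.4% of nuclei, against 5.7% and 2.5% of fibroblast-like nuclei. At 1000 UMIs the shares with Cftr were 64.4% and 74.5% in cluster members, 18.9% and 12.6% in luminal duct-like and 1.53% and 1.08% in fibroblast-like nuclei. Intercalated duct-like nuclei, a class described below, had 95.5 and 79.2 CPM of Cftr, with a UMI in 19.5% and 11.5% of nuclei. Cftr was thus shared with luminal and intercalated duct-like nuclei, at lower levels than in cluster members. Members in the luminal duct-like cluster, which the luminal duct-like class leaves out, had 501 and 650 CPM of it. Stap1, a signalling adaptor, had 1089.8 and 803 CPM in cluster members against 3.73 and 5.45 CPM in luminal duct-like nuclei. Both genes helped to select the members, so their higher level in cluster members is partly built in.

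Of the other 3 rule genes, Atp6v1c2 and Pde7b were less particular. Atp6v1c2, a subunit of the proton pump, was at 155 and 162 CPM in cluster members and 153 and 146 CPM in luminal duct-like nuclei, with overlapping intervals. Pde7b, a cyclic-AMP phosphodiesterase, was at 682 and 384 CPM in cluster members but 1599.7 and 1254 CPM in fibroblast-like nuclei, of which 88.5% and 82.4% had a UMI. Shisa9, a membrane protein known from glutamate receptor complexes, had 56 UMIs in control and 8 in null cluster members, 114 and 28.2 CPM. Luminal duct-like nuclei had 1 UMI of it in each library. Shisa9 helped to select the members too, so this separation is partly built in.

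**Figure D2:**
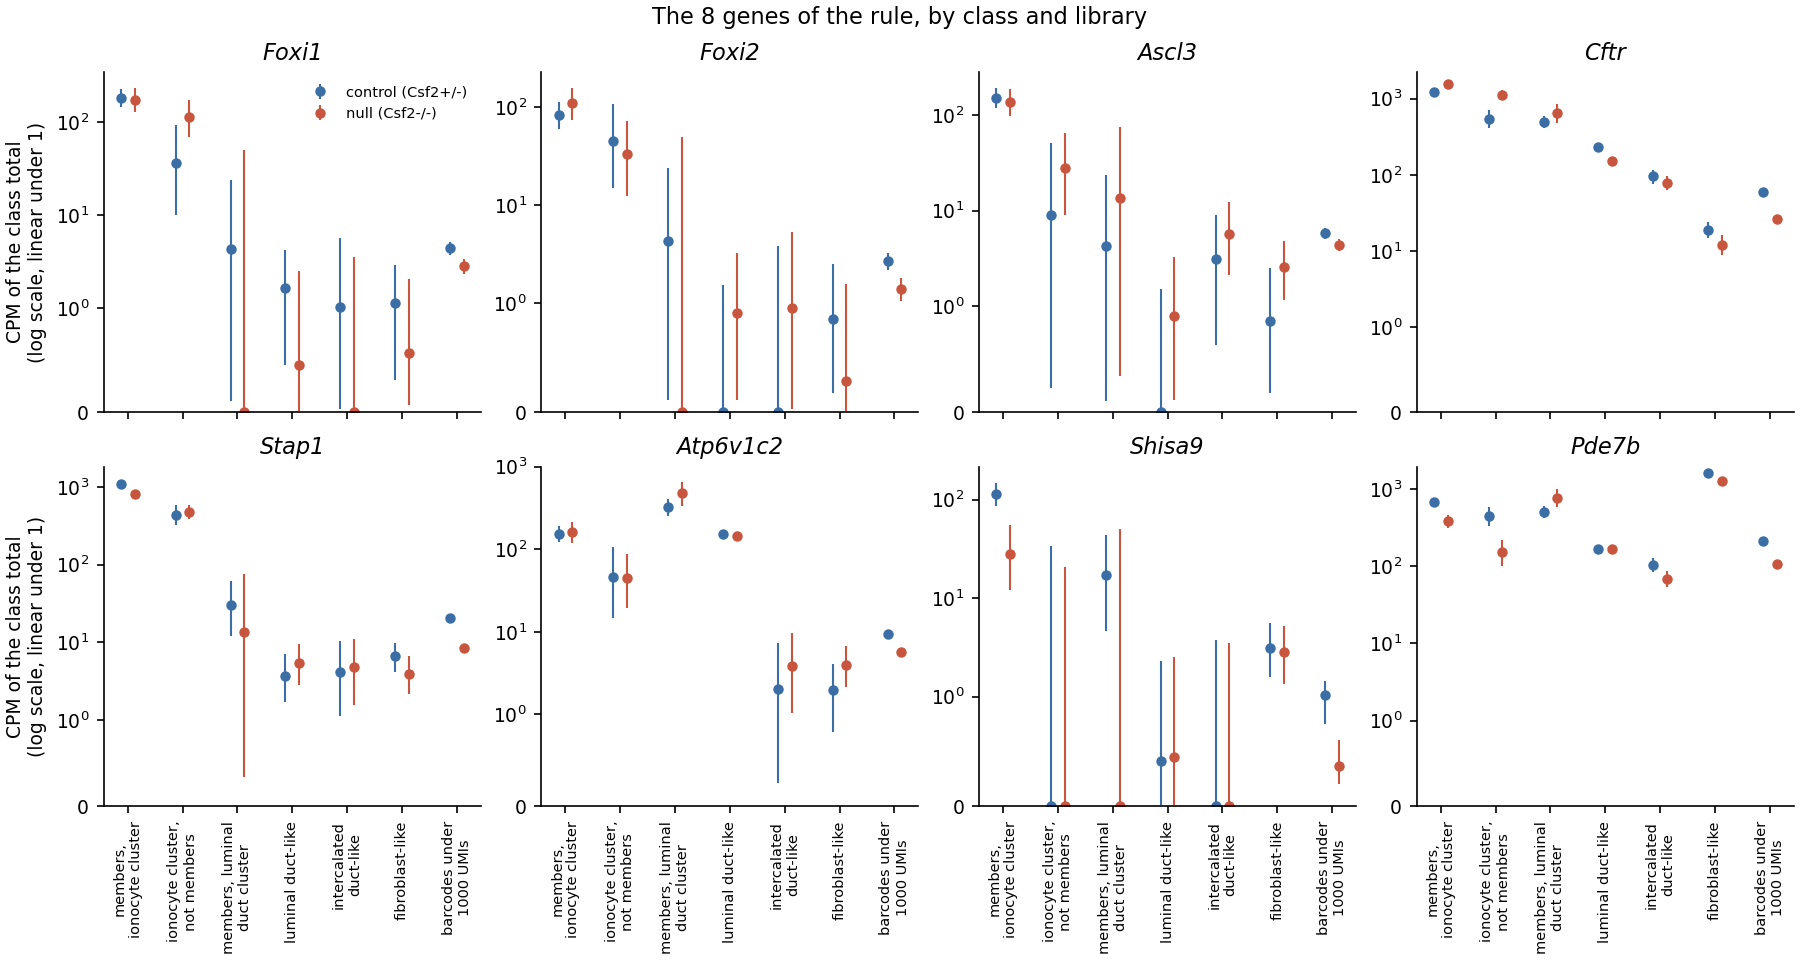
Level of each of the 8 rule genes (CPM of the class total, log scale that is linear under 1) in 7 classes of barcodes, control in blue and null in red, with exact 95% Poisson intervals as bars. Stap1 stands at 1089.8 and 803 CPM in cluster members and 3.73 and 5.45 CPM in luminal duct-like nuclei, while Atp6v1c2 is as high in both and Pde7b is highest in fibroblast-like nuclei.

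Genes with at least 50 UMIs in members numbered 5608, rule genes included. Of these, 222 (3.96%) were at least 2-fold higher in members than in all other nuclei in both libraries. The 25 leading genes leave the rule genes out and, because the members were selected on these nuclei, are a description. They were ranked by the lower bound of the counting interval of the ratio, taking the lower library. In order they were Kcnj3, Rcan2, Hepacam2, Gng4, Clnk, Dmrt2, Pde1c, Slc4a11, Hspb7, Gprc6a, Slc9a4, Dscaml1, Neurl1a, Arpp21, Plxna4, Dgki, Syn2, Plcg2, Kirrel3, Tmem117, Nrip3, Wdr72, Tmprss13, Steap2 and Aldh1a3.

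The sequence before the start sites of these genes was searched for 2 short motifs, on both strands, in the 250 bases upstream. The letters TGTTTAC are the core bound by forkhead factors, the family of Foxi1, and CAGCTG is an E-box, the kind of site bound by basic helix-loop-helix factors such as Ascl3. Promoters came from RefSeq on build GRCm38.p6, which is not the GRCm39 build of the counts, and 16 of the 25 genes had an entry. Slc4a11, Slc9a4, Dscaml1, Plxna4, Kirrel3, Nrip3, Wdr72, Tmprss13 and Aldh1a3 had none. The motif is in capitals in the following windows, read 5′ to 3′ on the strand of the gene. They are shown because these leading genes are high together in the ionocyte-like cluster; the window of Arpp21 is left out for brevity.

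Kcnj3: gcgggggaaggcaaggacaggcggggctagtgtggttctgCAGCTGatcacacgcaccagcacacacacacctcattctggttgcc
Rcan2: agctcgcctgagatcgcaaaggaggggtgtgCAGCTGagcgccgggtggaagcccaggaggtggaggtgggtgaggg
Hepacam2: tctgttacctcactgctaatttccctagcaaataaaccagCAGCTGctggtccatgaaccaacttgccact
Gng4: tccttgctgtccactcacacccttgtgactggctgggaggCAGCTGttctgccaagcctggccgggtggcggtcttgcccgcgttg
Pde1c forkhead: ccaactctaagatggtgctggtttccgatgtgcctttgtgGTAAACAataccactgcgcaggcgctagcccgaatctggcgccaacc
Pde1c E-box: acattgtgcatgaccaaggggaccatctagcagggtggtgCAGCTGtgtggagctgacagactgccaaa
Gprc6a: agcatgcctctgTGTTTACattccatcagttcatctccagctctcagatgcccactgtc

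These stretches lie at chr2:55435865-55435950 (plus strand) for Kcnj3, chr17:43801601-43801677 (plus strand) for Rcan2, chr6:3494499-3494569 (minus strand) for Hepacam2 and chr13:13783920-13784005 (plus strand) for Gng4. The Pde1c windows come from different start sites of the gene, chr6:56369667-56369753 (minus strand) and chr6:56362811-56362879 (minus strand), and that of Gprc6a is chr10:51631650-51631708 (minus strand). The E-box was found in 6 of the 16 genes (Arpp21, Gng4, Hepacam2, Kcnj3, Pde1c and Rcan2) and in 14.7% of all 27025 genes. The forkhead core was found in 2 (Gprc6a and Pde1c, in Pde1c as its reverse complement GTAAACA) and in 3.54% of all genes. Of all 32851 single promoters, 4271 held the E-box and 3.17% the forkhead core. Of the 8 rule genes 6 had an entry, of which 0 held the forkhead core and 1 (Pde7b) the E-box, and Stap1 and Shisa9 had none. The motifs share no bases in the windows shown, and a match is a run of letters, not a measured binding site.

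Kcnj3 (ENSMUSG00000026824), a subunit of G-protein-gated potassium channels, led the list with 1012 and 772 CPM in control and null cluster members. It had 7.87 and 6.81 CPM in luminal duct-like nuclei, log2 ratios of 7.01 (6.35 to 7.75) and 6.82 (6.07 to 7.69). Gng4, a gamma subunit of G proteins, had 326 and 201 CPM in cluster members and 1 UMI in the luminal duct-like nuclei of each library. Clnk, a signalling adaptor, had 884 and 733 CPM against 3.31 and 2.72 CPM. In these 3 genes both libraries of cluster members were above both libraries of luminal duct-like nuclei. Leading genes were chosen as high in members in both libraries, so this separation is largely built in.

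Rcan2, a regulator of the phosphatase calcineurin, stood at 1265 and 1413 CPM in cluster members and 7.04 and 3.18 CPM in luminal duct-like nuclei. Hepacam2, an adhesion molecule of the immunoglobulin family, was at 503 and 352 against 2.90 and 2.27 CPM. Dmrt2, a DM-domain transcription factor, was at 79.4 and 119.8 CPM, with 2 and 0 UMIs in luminal duct-like nuclei. All 3 were chosen in the same way, so their separation in both libraries is likewise a description.

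The leading genes included a pair of acid-base transporters. Slc4a11, a proton or hydroxide carrier of the bicarbonate transporter family, had 603 and 514 CPM against 3.73 and 5.45 CPM, log2 ratios of 7.34 (6.39 to 8.48) and 6.56 (5.71 to 7.55). Slc9a4, a sodium-proton exchanger, had 255 and 151 against 7.87 and 9.08 CPM, log2 ratios of 5.02 (4.31 to 5.80) and 4.06 (3.26 to 4.90).

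Pde1c (ENSMUSG00000004347), a calmodulin-dependent phosphodiesterase, was at 6708 and 6683 CPM in cluster members against 287 and 239 CPM, log2 ratios of 4.55 (4.43 to 4.67) and 4.81 (4.67 to 4.95). Dgki, a diacylglycerol kinase, had 4767 and 5401 against 40.6 and 65.4 CPM. Plcg2, a phospholipase C, had 982 and 645 against 109 and 109 CPM. These 3 enzymes of second-messenger turnover, leading genes too, were higher than in luminal duct-like nuclei in both libraries.

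Kirrel3, an adhesion molecule known from neurons, was at 3553 and 3992 CPM in cluster members against 24.9 and 32.2 CPM in luminal duct-like nuclei. The semaphorin receptor Plxna4 was at 2363 and 2878 against 606 and 496 CPM. The membrane protein Tmem117 was at 3944 and 3273 against 1229.7 and 1106 CPM. Plxna4 and Tmem117 were thus shared with luminal duct-like nuclei at a lower level, while in intercalated duct-like nuclei Tmem117 had 40.1 and 24.8 CPM.

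Both the leading genes and the clustering rest on these same nuclei, so how they overlap is a description. Cluster nuclei that the rule had missed carried 7045 and 6517 CPM of Pde1c, 629 and 518 CPM of Slc4a11 and 1431 and 1169.7 CPM of Rcan2. Members in the luminal duct-like cluster had 0 UMIs of Rcan2, Clnk, Gng4 and Slc4a11 in both libraries, and 261 and 122 CPM of Pde1c. Gprc6a, an amino-acid-sensing receptor, and Aldh1a3, an enzyme of retinoic acid synthesis, were also at 0 there, against 122 and 63.4 and 139 and 88.1 CPM in cluster members. The summed level of 15 luminal duct markers in these nuclei was 21225 and 16953 CPM, against 9810 and 9277 CPM in cluster members.

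**Figure D3:**
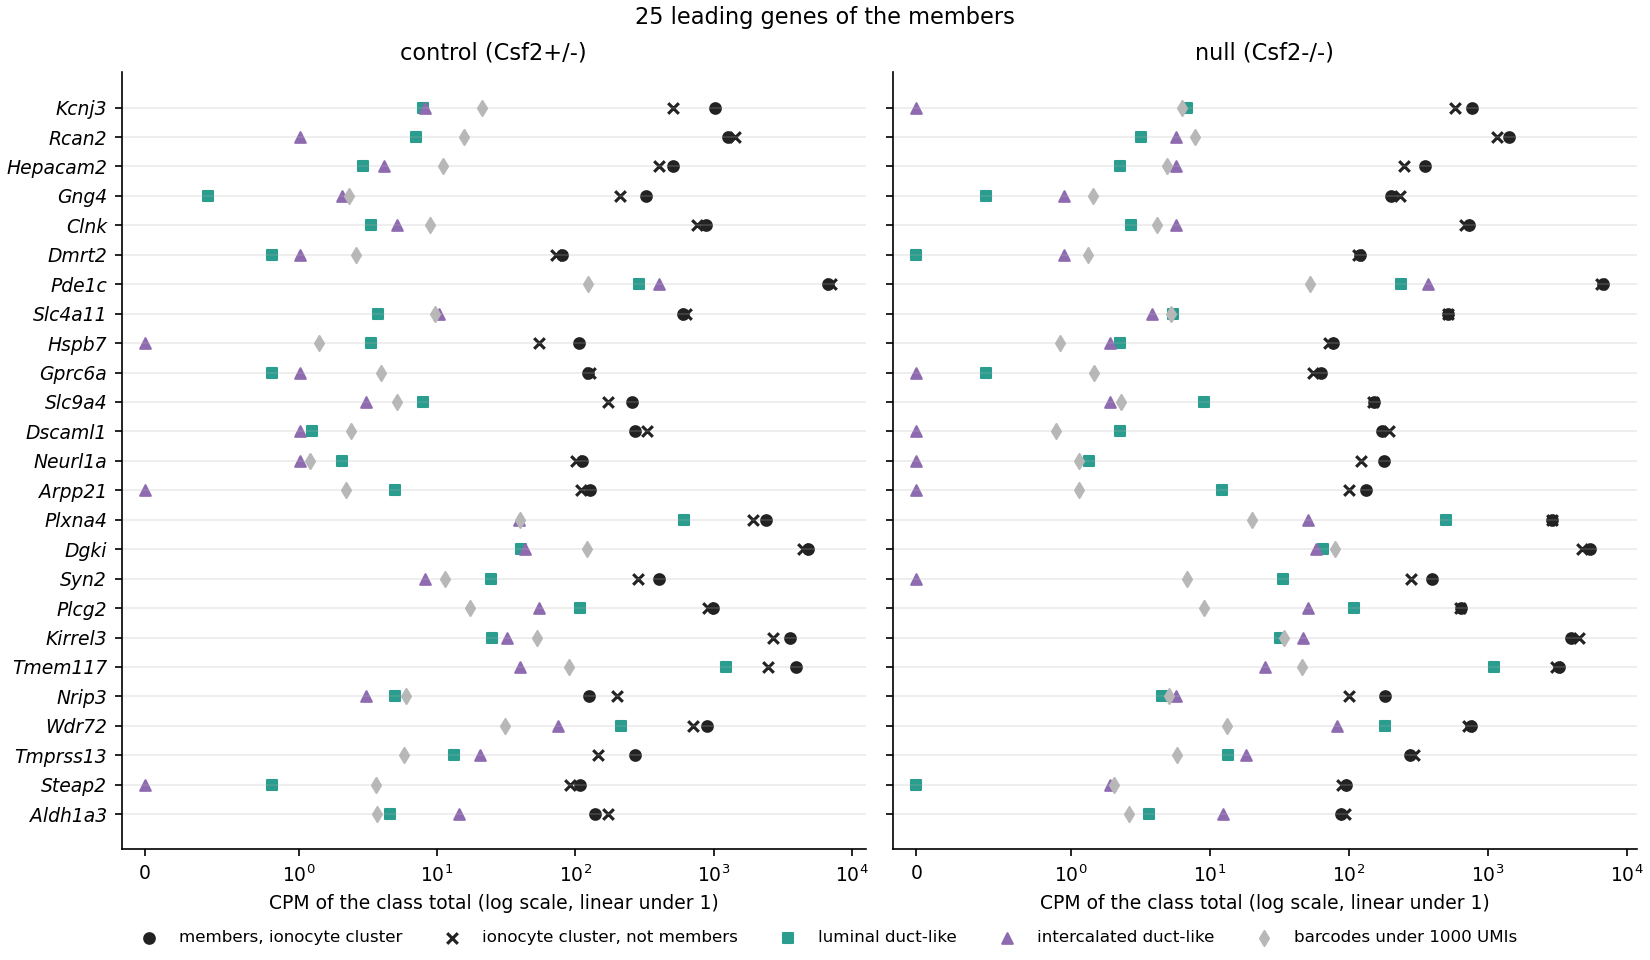
Level of the 25 leading genes (CPM of the class total, log scale that is linear under 1, x axis) in 5 classes, control left and null right. For Kcnj3 the cluster members stand at 1012 and 772 CPM and the luminal duct-like nuclei at 7.87 and 6.81 CPM; Plxna4, Wdr72 and Tmem117 have the nearest luminal duct-like points.

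Luminal and intercalated duct-like nuclei were the other duct classes. Of 3 clusters with intercalated duct markers, the class uses 1, with 369 and 529 nuclei that were not members. Left out were one with none of its markers among its 10 highest genes by fold (122 and 268 nuclei) and one almost wholly from the null library (66 and 2986 nuclei). The cluster used showed 4 of 11 intercalated duct markers at 2-fold, so its name rests on few. The 11 markers summed to 4351 and 15789 CPM in the class, 2684 and 12537 CPM in luminal duct-like nuclei and 8197 and 36885 CPM in free RNA. The class also had 1284 and 867 CPM summed over 6 tuft markers, 3 and 4 of them at 0. Luminal duct-like nuclei had 157 and 74.5 CPM of these. In each comparison cluster members were set against the luminal or the intercalated duct-like class of the same library. Genes, rule genes included, were called at a 2-fold ratio in both libraries among those with a mean of at least 20 CPM over both classes. Against luminal duct-like nuclei, 241 of 6880 genes (3.5%) were higher and 269 (3.91%) lower. Against intercalated duct-like nuclei, 312 of 6911 (4.51%) were higher and 327 (4.73%) lower. For all 394 members against luminal duct-like nuclei, 203 of 5608 genes with at least 50 UMIs (3.62%) were higher. Set against all other nuclei with the 20 CPM filter, 223 of 7104 genes (3.14%) were higher in members and 127 (1.79%) lower. These calls are point ratios with no test. Secretory RNA of acinar cells was present in every class, with 10 acinar markers at 88398 and 111258 CPM in cluster members and 284452 and 325688 CPM in free RNA, and its part in the ratios was not tested.

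Of 20 ionocyte genes of other tissues that the rule did not use, 13 passed the filter. Of these 9 were higher than in luminal duct-like nuclei, among them Atp6v1b1, Bsnd, Kcnma1, Moxd1, Hepacam2, Dmrt2, Slc12a2 and Kit, and 1 was lower. The median log2 ratio of the list was 2.52 for control and 2.59 for null nuclei, against -0.05 in each over all genes tested. The list was chosen with earlier results of these data known and holds the leading genes Hepacam2 and Dmrt2, so this is a description. Foxi3 and the anion exchanger Slc26a4, which mark ionocytes of other tissues, had 0 UMIs in cluster members, where a count of 0 allows up to 3, and P2ry14 also had 0.

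Chloride entry genes were high. Slc12a2, the sodium-potassium-chloride cotransporter that loads cells with chloride, was at 3504 and 3083 CPM in cluster members and 525 and 405 CPM in luminal duct-like nuclei, log2 ratios of 2.74 (2.63 to 2.84) and 2.93 (2.79 to 3.06). Intercalated duct-like nuclei were between, at 1137 and 737 CPM. Stk39, a kinase that activates this cotransporter, had 2471 and 2191 against 808 and 751 CPM.

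Bsnd, an accessory subunit of chloride channels, was at 130.4 and 109 CPM against 32.3 and 32.2 CPM. Of 29 chloride channel and cotransporter genes, 17 passed the filter, 5 were higher, among them Bsnd, Ano10, Slc12a2 and Stk39, and 1 was lower. Median log2 ratios were 0.10 (control) and 0.41 (null).

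Kcnma1, the large-conductance calcium-activated potassium channel, was at 13043 and 12909 CPM in cluster members, 1677 and 2138 CPM in luminal and 3639.6 and 3721 CPM in intercalated duct-like nuclei. The inward rectifiers Kcnj15 and Kcnj16 were low, unlike the leading gene Kcnj3 of the same family, Kcnj16 with 10 and 7 UMIs in control and null cluster members against 360 and 240 in luminal duct-like nuclei, and Kcnj15 with 6 and 1 against 299 and 162. The levels of these potassium channel genes thus differed between cluster members and luminal duct-like nuclei in both libraries.

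Scnn1b, a subunit of the epithelial sodium channel, was at 283 and 229 CPM in cluster members, 314 and 313 CPM in luminal and 6.16 and 5.72 CPM in intercalated duct-like nuclei. Nedd4l, a ubiquitin ligase known to remove the sodium channel from the membrane, was at 1102 and 715 CPM in cluster members against 212 and 165 CPM in luminal duct-like nuclei. The channel subunit was thus within 2-fold of luminal duct-like nuclei in both libraries, and the ligase was higher. Of 29 sodium and potassium genes, 16 passed the filter, 2 were higher (Nedd4l and Kcnma1) and 2 lower (Kcnj15 and Kcnj16).

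The proton pump was not high as a whole. Of 24 subunit genes outside the rule, 18 passed the filter, 2 were higher than in luminal duct-like nuclei (Atp6v1b1 and Atp6ap2) and 0 lower, with medians of 0.07 and 0.30. Atp6v1b1, a subunit of intercalated and other acid-secreting cells, was at 63.1 and 63.4 CPM against 12.01 and 9.54 CPM in luminal and 57.5 and 49.6 CPM in intercalated duct-like nuclei. Atp6v0d2, a subunit of the membrane sector, was at 497 and 451 CPM against 417 and 268 CPM in luminal but 12.3 and 6.68 CPM in intercalated duct-like nuclei. Atp6v0a4 and Atp6v1g3, subunits of renal acid-secreting cells, were near 0, with 3 and 0 UMIs of the first and 2 and 1 of the second in control and null cluster members.

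Against all other nuclei, 3 of 19 pump genes were higher in members (Atp6v0d2, Atp6v1b1 and Atp6ap2), with medians of 0.37 (control) and 0.36 (null), where all genes had -0.04 and 0.01. Against intercalated duct-like nuclei the 3 higher genes were Atp6v0d2, Atp6v1a and Atp6ap2. Atp6v1b1 was therefore not 2-fold above intercalated duct-like nuclei, and Atp6v0d2 not 2-fold above luminal ones.

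Of 33 acid-base transport genes, 13 passed the filter, 4 were higher (Slc4a11, Slc9a2, Slc9a4 and Slc9a9) and 3 lower, among them Slc4a4 and Car12. Slc9a2, a sodium-proton exchanger of the plasma membrane, was at 132 and 119.8 against 38.5 and 34.96 CPM. Slc9a9, an exchanger of endosomes, was at 155 and 162 against 19.5 and 21.3 CPM, so both exchangers were higher in cluster members. Car12, a membrane carbonic anhydrase, was at 141 and 73.99 against 373 and 231 CPM, and Slc4a4, a sodium bicarbonate cotransporter, had 13 and 0 UMIs against 183 and 93. Acid-base genes of cluster members thus differed from those of luminal duct-like nuclei in both directions.

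**Figure D4:**
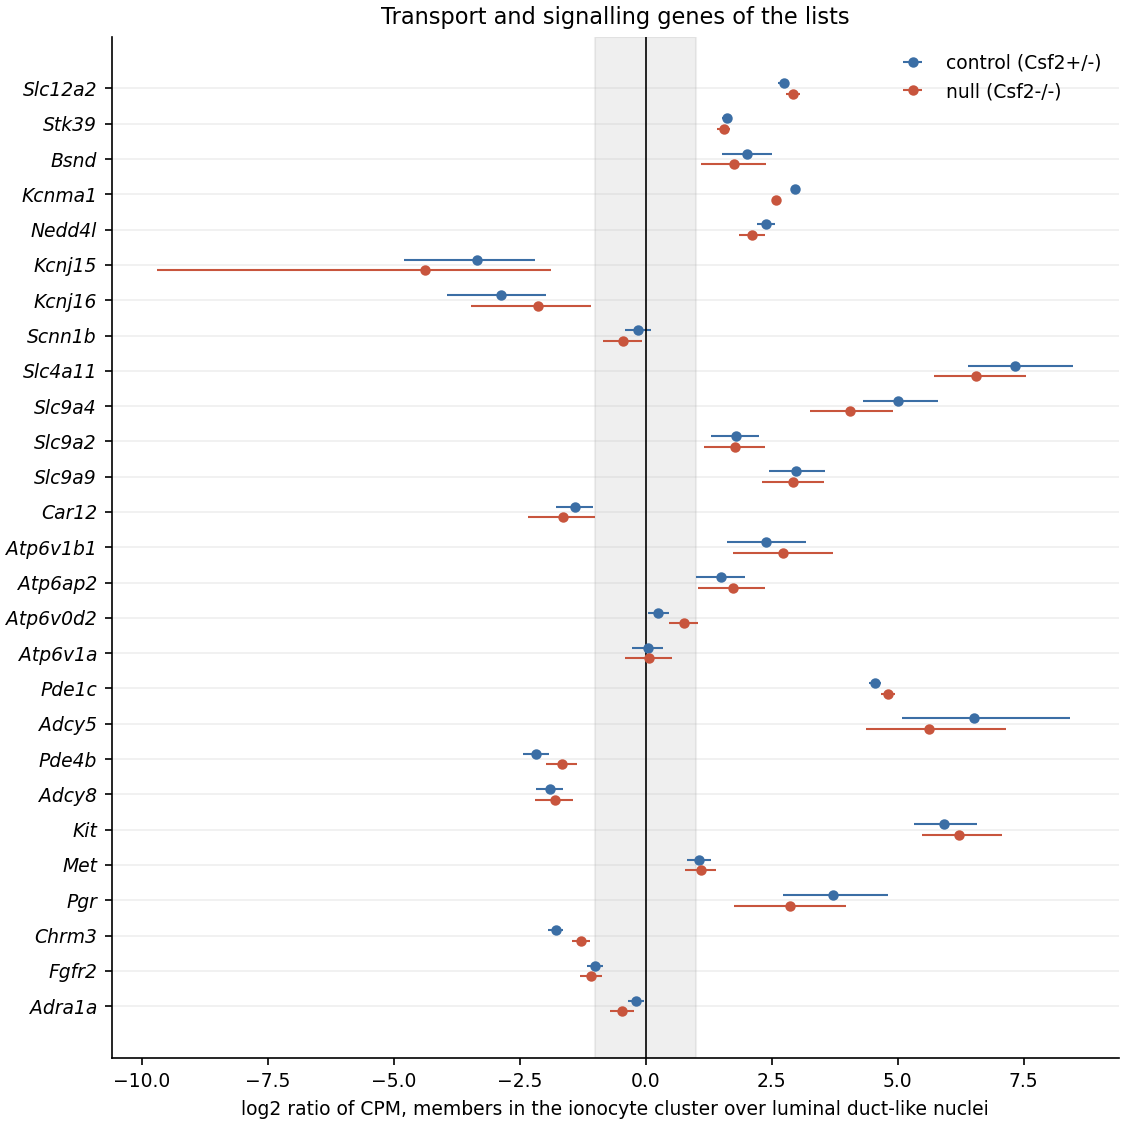
Log2 ratio of CPM of cluster members over luminal duct-like nuclei (x axis) for 27 genes of the lists, control in blue and null in red, with 95% counting intervals as bars and the range within 2-fold shaded. Slc4a11, Kit and Adcy5 lie furthest to the right and Kcnj15 and Kcnj16 furthest to the left, in both libraries.

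Of 41 regulators of ionocyte and duct fate, 26 passed the filter, 1 was higher than in luminal duct-like nuclei (Dmrt2) and 1 lower (Ppargc1b). Tfcp2l1, a factor of renal intercalated cells and salivary ducts, was at 2893 and 2279 CPM in cluster members and 3384 and 2728 CPM in luminal duct-like nuclei. Esrrg, an orphan nuclear receptor of energy metabolism, was at 5956 and 5655 against 9863 and 8749 CPM. Nr3c2, the mineralocorticoid receptor, was at 1452 and 1142 against 1245 and 999 CPM. These 3 regulators were within 2-fold of luminal duct-like nuclei in both libraries.

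Of 24 genes of energy metabolism and its regulators, most of them mitochondrial, 22 were in the files and 17 passed the filter, with 0 higher and 1 lower (Ppargc1b) and medians of -0.44 and -0.29. Ppargc1a, the coactivator that drives mitochondrial genes, was at 1931 and 1149 CPM in cluster members and 6049.5 and 1956 CPM in luminal duct-like nuclei. It was lower in the control cluster members and within 2-fold in the null.

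Of 23 Notch pathway genes, 8 passed the filter against luminal duct-like nuclei, with 0 higher and 0 lower. Against intercalated duct-like nuclei 10 passed, 0 were higher and 3 lower (Notch1, Notch3 and Maml2). Maml2, a coactivator of Notch, was at 226 and 289 CPM in cluster members and 1183 and 1118 CPM there.

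Some cyclic nucleotide genes differed from luminal duct-like nuclei. Of 36 such genes 21 passed, 2 were higher (Pde1c and Adcy5) and 4 lower (Pde4b, Pde8a, Adcy2 and Adcy8). Adcy5, an adenylyl cyclase, was at 151 and 134 CPM against 1.66 and 2.72 CPM, while Adcy8, a calcium-stimulated one, was at 246 and 211 against 920.3 and 741 CPM. Pde4b, a cyclic-AMP phosphodiesterase, was at 281 and 342 against 1269 and 1086 CPM. Cluster members and luminal duct-like nuclei thus differed in the level of some cyclases and phosphodiesterases in both libraries. The other 15 of the 21 genes were neither higher nor lower.

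Of 41 receptor genes 21 passed, 4 were higher (Vipr1, Met, Kit and Pgr) and 2 lower (Chrm3 and Fgfr2). Kit, the receptor of stem cell factor and a marker of intercalated ducts, was at 627 and 543 CPM in cluster members, 10.4 and 7.26 CPM in luminal and 388 and 426 CPM in intercalated duct-like nuclei. Chrm3, the muscarinic receptor of gland secretion, was at 784 and 955 against 2698 and 2337 CPM in luminal duct-like nuclei. Adra1a, an adrenergic receptor, was at 764 and 578 CPM, 874 and 798 CPM and 30.8 and 22.9 CPM in cluster members, luminal and intercalated duct-like nuclei. Cluster members thus had Kit in common with the intercalated class and Adra1a with the luminal class.

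The GM-CSF receptor was barely detected. Its alpha subunit Csf2ra had 6 and 5 UMIs in control and null cluster members, 12.2 and 17.6 CPM, against 24.6 and 14.8 CPM in nuclei that were not members. The signalling subunits Csf2rb and Csf2rb2 had 0 UMIs in cluster members of both libraries, where a count of 0 allows up to 3, and Csf2 had 0. Of 15 genes of this receptor and JAK2-STAT5, 8 passed the filter and 0 were higher or lower.

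A UMI of Foxi1, Foxi2 or Ascl3 was present in 100 control and 79 null cluster members and absent in 46 and 31. Pde1c was at 6945 and 6439 CPM with such a UMI and at 6196 and 7282 CPM without one. Slc4a11 was at 596 and 531 CPM with it and 618 and 474 CPM without. For both genes the libraries went opposite ways, and neither gene was low in the nuclei without a detected regulator. All these nuclei were placed in the cluster by genes outside the rule, so this likeness is partly built in.

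Over the 18 clusters, the genes whose level followed Foxi1 most closely were Gng4, Slc4a11, Ubl7, Rcan2, Hepacam2, Dmrt2, Aldh1a3, Tmem61, Neurl1a and Syn2. Pearson's r of log2(CPM + 1) ran from 0.936 for Gng4 to 0.804 for Syn2. The clusters share libraries and depth, and 1 of the 18 is the ionocyte-like cluster itself, so the value is a description. Ubl7 and Tmem61 are not among the 25 leading genes.

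Members made up 2.79% of control nuclei (234 of 8384, exact binomial interval 2.45 to 3.17) and 1.22% of null nuclei (160 of 13096, 1.04 to 1.42), a log2 ratio of -1.19. The rule's shares move with depth and with the number of other nuclei kept. Null nuclei were shallower, with a median of 2010.5 UMIs against 2830.5, and thinning to 1000 UMIs before applying the rule gave -0.82. For the whole ionocyte-like cluster, which does not use the rule genes, the shares were 2.24% (188 nuclei) and 1.53% (200 nuclei), a log2 ratio of -0.55. The luminal duct-like cluster held 798 control and 982 null nuclei. The sizes of the clusters that came almost wholly from 1 library also enter these denominators, and their part in the difference was not tested.

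Between libraries, 79 of 5608 genes with at least 50 UMIs in members (1.41%) were at least 2-fold higher in null members and 108 (1.93%) at least 2-fold lower. With CPM taken without the 8 secretory genes the counts were 109 and 69, so the balance of directions depends on the scaling. One null barcode of 171879 UMIs, outside the ionocyte-like cluster, held 24.999% of all UMIs of null members, and without it the counts were 50 and 87. F13a1, a macrophage gene, led the higher genes with 19 and 123 UMIs in control and null members, but with 1 and 0 in cluster members. The summed level of 10 macrophage markers was 103 and 378 CPM in all members, 57 and 45.8 CPM in cluster members, and 257 and 731 CPM in the members of other clusters. Of the 10 markers, 1 was at 0 in control cluster members (Adgre1) and 5 in null ones (Adgre1, C1qb, F13a1, Cd163 and Ptprc). The other genes named on the higher side were Hpse2, Mrc1, Rbpj, Sh3rf2, Hdac9, Foxp2, Mctp1, Tsn, Mki67, Kctd8 and Arhgap31, and on the lower side Ppargc1a, Gfpt2, Eepd1, Stxbp5l, Slit2, Arhgef10, Eva1a, Rarb, Acyp2, Csmd1, Tmem163 and Entpd5. Besides F13a1, 3 of these 24 genes had a point ratio of the other sign in cluster members: Rbpj, the DNA-binding effector of Notch, had 1.62 in all members but -0.21 (-0.92 to 0.47) in cluster members, Kctd8 1.54 but -0.53 (-2.18 to 0.92), and Csmd1 -1.87 but 0.38 (-2.40 to 2.94).

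Within cluster members F13a1 and Mrc1 were not among the genes named. Here 36 of 3104 genes (1.16%) were at least 2-fold higher in the null library and 54 (1.74%) lower, or 50 and 40 with CPM taken without the secretory genes. Of the 24 genes named in this way, 3 were also named over all members (Arhgef10, Slit2 and Ppargc1a). Free RNA differed between the libraries as well, and the ratios in other nuclei and in barcodes under 1000 UMIs are given for the genes described. The 24 genes were chosen by their ratio in cluster members, so a larger ratio there than in other classes is partly built in.

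Resf1, a gene linked to silencing of retroviral elements, was at 153 and 359 CPM in control and null cluster members, a log2 ratio of 1.23 (0.79 to 1.68). In other nuclei the ratio was 0.03 and in free RNA -0.11. Limd1, a LIM-domain adaptor, was at 44.8 and 119.8 CPM, 1.42 (0.60 to 2.26), against 0.08 in other nuclei and -0.14 in free RNA. Plekha6 was at 79.4 and 176 CPM, 1.15 (0.52 to 1.79), against -0.16 and -0.41. These 3 genes were higher in null cluster members while their ratios in other nuclei were near 0, a contrast that is partly built in by the choice.

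For Ifi27l2a, an interferon-induced gene, the ratio of 1.51 (0.73 to 2.33) came with 1.03 in other nuclei and 0.84 in free RNA, so the difference was present in all 3 classes. Uqcrh and Ndufa6, subunits of the respiratory chain, had ratios of 1.18 (0.60 to 1.77) and 1.10 (0.36 to 1.86), against 0.39 and 0.39 in other nuclei and 0.44 and 0.48 in free RNA. The remaining higher genes were Dnaja1, Tbc1d30, Cdyl, Brd9, Mdfic and Pabpc4, with log2 ratios from 1.003 to 1.22 in cluster members, -0.28 to 0.51 in other nuclei and -0.89 to 0.44 in free RNA.

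Arhgef10, an exchange factor of small GTPases, was at 409 and 151 CPM in control and null cluster members, a log2 ratio of -1.43 (-1.94 to -0.95). It was -0.17 in luminal duct-like and -0.22 in other nuclei, but -1.005 in free RNA. Lgr4, a receptor of R-spondins that strengthens WNT signalling, was at 306 and 137 CPM, -1.15 (-1.70 to -0.64), against 0.00 in luminal duct-like nuclei, -0.31 in other nuclei and -0.76 in free RNA. Xpnpep1, an aminopeptidase, had 52 and 9 UMIs, -1.74 (-2.95 to -0.71), against -0.14 in other nuclei and -0.48 in free RNA. All 3 were lower in the null cluster members by more than in other nuclei, which is partly built in by the choice. The part of the free RNA in this was not tested.

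Ehf, an ETS factor of epithelia, was at 707 and 402 CPM, -0.82 (-1.13 to -0.51), against -0.21 in luminal duct-like nuclei, -0.35 in other nuclei and -0.77 in free RNA. Slit2, a guidance ligand, was at 943 and 483 CPM, -0.97 (-1.25 to -0.69), against -0.38, -0.67 and -1.26. The other lower genes were Ddx10, Bcl6, Lactb2, Fut8, Flcn and Emsy, with log2 ratios from -1.82 to -1.06 in cluster members, -1.28 to -0.09 in other nuclei and -1.25 to -0.50 in free RNA.

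**Figure D5:**
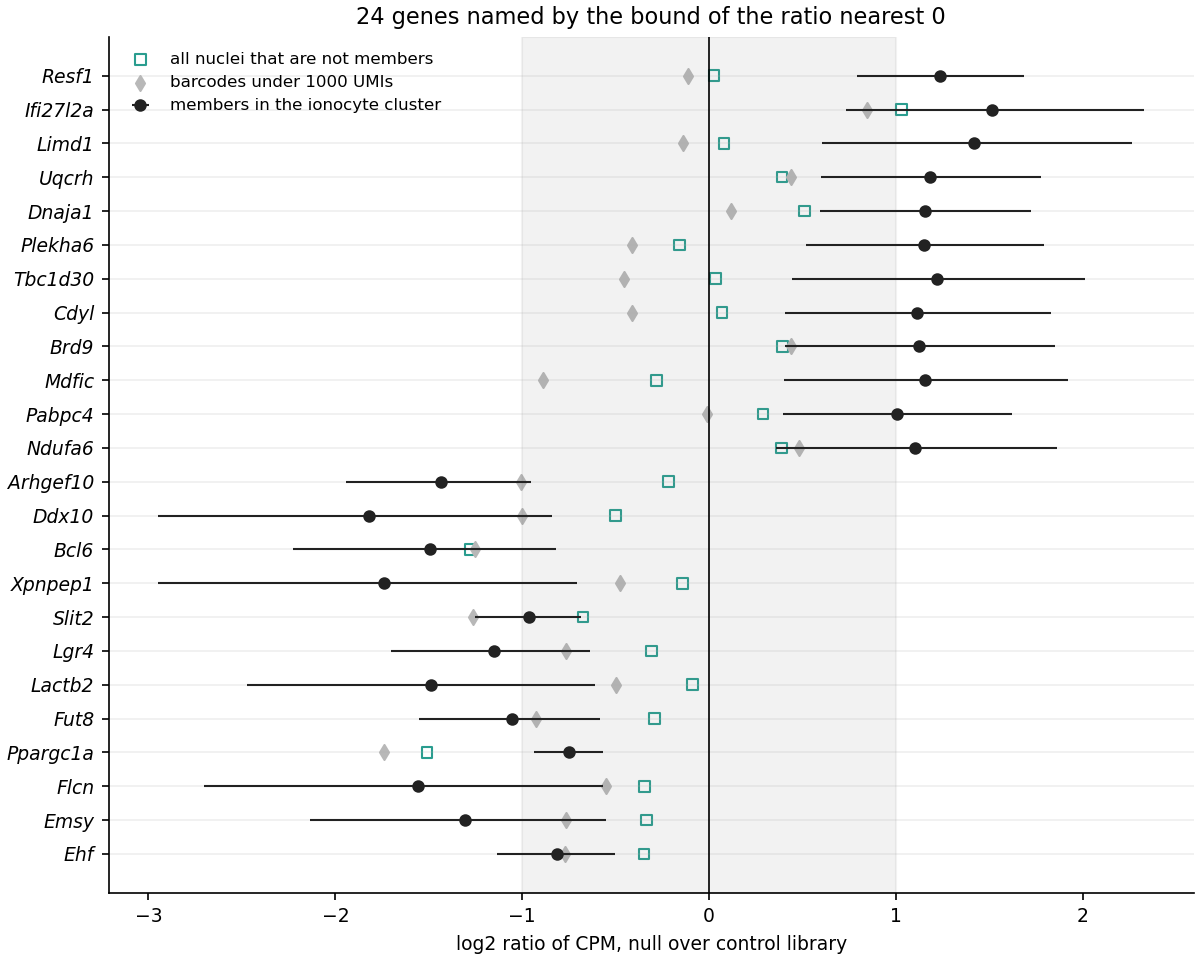
Log2 ratio of CPM, null over control library (x axis), for the 24 genes named in cluster members, with 95% counting intervals as bars, beside all nuclei that are not members and barcodes under 1000 UMIs. Resf1 stands at 1.23 in cluster members and 0.03 in other nuclei, while Bcl6 stands at -1.49 and -1.28.

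Of 24 immediate early, clock and other genes, some of them listed because earlier results had shown them to differ between these libraries, 23 were in the files and 18 passed the filter against luminal duct-like nuclei, with 1 higher (Nupr1) and 1 lower (Slc15a2) in cluster members. Some shifts seen across the libraries were smaller in cluster members than elsewhere. Nupr1, a stress-induced chromatin protein, was at 1118 and 1113 CPM in control and null cluster members, a ratio of -0.01 (-0.21 to 0.20). In luminal duct-like nuclei it was lower, at 145 and 304 CPM, with a ratio of 1.07 (0.88 to 1.26), and in free RNA the ratio was 1.30 (1.26 to 1.33). Ppargc1a had a ratio of -0.75 (-0.94 to -0.57) in cluster members, -1.63 (-1.68 to -1.58) in luminal duct-like nuclei and -1.74 (-1.78 to -1.70) in free RNA. For both genes the intervals of the classes did not overlap, with 1 library each and no test of the difference. Bcl6, a transcriptional repressor, and Irs2, an adaptor of insulin signalling, had -1.49 (-2.22 to -0.82) and -1.04 (-2.15 to -0.04) in cluster members, against -1.42 and -1.39 in luminal duct-like nuclei, and their intervals did overlap.

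Of the 25 leading genes, 12 had a null over control interval in cluster members that includes 0, 9 were lower in the null library (Kcnj3, Hepacam2, Gng4, Clnk, Gprc6a, Slc9a4, Dscaml1, Plcg2 and Tmem117) and 4 higher (Neurl1a, Plxna4, Dgki and Kirrel3). The share of all genes with an interval clear of 0 was not counted. Whether leading genes differed between the libraries more often than other genes therefore cannot be told. Among the lower genes Kcnj3 had -0.39 (-0.63 to -0.16) and Gprc6a -0.95 (-1.79 to -0.17), against -1.76 and -1.42 in free RNA. Neurl1a, a ubiquitin ligase, had 0.68 (0.10 to 1.26) against -0.08. Among those whose interval includes 0, Pde1c had a null over control ratio of -0.01 (-0.09 to 0.08) in cluster members, Slc4a11 of -0.23 (-0.53 to 0.06) and Rcan2 of 0.16 (-0.03 to 0.34). Foxi1 and Ascl3 had -0.07 (-0.60 to 0.45) and -0.15 (-0.75 to 0.42), both intervals including 0. The same held for Foxi2 and Atp6v1c2, at 0.39 (-0.33 to 1.10) and 0.07 (-0.49 to 0.61). Shisa9, Pde7b and Stap1 were lower, at -2.02 (-3.30 to -0.94), -0.83 (-1.15 to -0.51) and -0.44 (-0.67 to -0.21), and Cftr was higher, at 0.36 (0.18 to 0.54). All 8 genes helped select the members. The ratios in free RNA were -1.52 for Shisa9, -0.96 for Pde7b, -1.30 for Stap1 and -1.18 for Cftr.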

How the data were processed

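Members and gene lists were chosen with earlier results of these data known. The deposited counts are whole-number UMI counts per gene and barcode, which the authors made, per the file headers, with Cell Ranger 7.0.0 on build GRCm39, per the submitters' processing notes; whether intronic reads were counted is not given in the sources used here. The files hold 26033 genes. Nuclei were clustered in Scanpy 1.11.5 (2000 variable genes without the 8 rule and 8 secretory genes, 30 principal components, 20 neighbours, Leiden resolution 1 with igraph 0.11.9), and a cluster was named from at least 3 markers at 2-fold. Counts were summed per class and library, and ratios given with exact 95% intervals (SciPy 1.17.1), without tests; the code was tested on simulated data. Genes named between classes are the 25 with the highest lower bound of the ratio in the lower library, and between libraries the 12 highest and 12 lowest by the bound nearest to no difference, with at least 50 UMIs. Left out were mitochondrial, ribosomal protein, sex-linked and predicted genes and, between libraries, the 100 most abundant free-RNA genes. Lists were given by counts and medians, and some items are not reported here. Alternatives on members, depth, filters, scaling, doublets and free RNA are in the closing section.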

Additional observations from a re-analysis of the deposited data

Results flagged for a closer look

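Of 2902 genes checked, 5 had a ratio of cluster members over luminal duct-like nuclei with counting intervals on opposite sides of 0 in the control and null libraries. The difference between the libraries was not tested, since there is 1 library of each. Lgr4, the R-spondin receptor, had log2 ratios of 0.47 (control) and -0.68 (null). Ncoa2, a coactivator of nuclear receptors, had 0.31 and -0.34, and Zmynd8, a chromatin reader, 0.32 and -0.41, so these 3 genes were above luminal duct-like nuclei in the control library and below them in the null library. The opposite order was seen for Uqcrh, a subunit of the respiratory chain, with -0.47 and 0.63, and for A2ml1, a protease inhibitor, with -0.20 and 0.44.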

How the results depend on the processing

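Of 91 alternatives over 8 results, 68 stayed near the reported value, 23 did not and 0 reversed; those restricted to cluster members, without the largest barcode or with a filter of 20 CPM were chosen after seeing the data. The share of members, a log2 ratio of -1.19 between libraries, was -0.67 with all barcodes as denominator, -0.83 at 2000 UMIs or more, -0.82 thinned, -0.55 for the ionocyte-like cluster, -0.65 with under 20% and -0.56 with under 35% secretory UMIs, and -1.47 to -1.05 otherwise. Genes higher than in other nuclei (222) were 128 with at least 4 rule genes, and those higher than in luminal duct-like nuclei (203) were 373 at 20 UMIs.

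Genes higher in null members (79) were 273 at 20 UMIs, 143 with at least 4 rule genes, 169 with free RNA subtracted, 126 with the 6 marker genes alone, 44 without nuclei holding non-epithelial markers, 50 without the largest barcode, 36 in cluster members and 50 there without the secretory genes. Genes lower in null members (108) were 319 at 20 UMIs, 177 with at least 4 rule genes, 69 without the secretory genes, 54 in cluster members and 40 there without the secretory genes. Of the 79 and 108 genes, 5 and 17 were also called in cluster members. Members with both Foxi1 and Foxi2 (6.60%) were 9.77% of cluster members and 1.27% after thinning. The cause of each change was not tested. The median of the proton pump genes over other nuclei, 0.36, ran from 0.20 to 0.57.

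Depth limits what a nucleus can show: at 1000 UMIs Foxi1 was seen in under 20% of cluster members. No paired analysis was possible because each genotype has 1 library.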
